A study of Arabidopsis thaliana with 12 samples.

Results

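HD-Zip class I genes encode plant transcription factors in which a DNA-binding homeodomain is joined to a leucine zipper, through which the proteins pair before they bind DNA. Several of them are known as genes of the response to drought and to abscisic acid (ABA), the hormone that plants make when water is short, and others are known for their part in leaf, stem and bud growth. The 10 members described here were chosen by gene identifier, with earlier results of these data known: HB7, HB12, HB6, HB5, HB1, HB16, HB13, HB21, HB40 and HB53. They are 10 of the 27655 genes in the deposited files and 10 of 17 class I genes looked up in them.

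Seedlings of Arabidopsis thaliana, wild-type accession Col-0, were grown in 96-well plates and kept for 6 h in liquid medium with 10 µM ABA (3 libraries), 10 µM 3'-propyl ABA (3 libraries), 10 µM 3'-butyl ABA (3 libraries) or DMSO, the solvent control (3 libraries). The derivatives are ABA with an alkyl chain added at its 3' position, propyl in the first and butyl, which is 1 carbon longer, in the second. No group carries a transgene or a mutation, and all share the medium, the temperature of 22 °C and continuous light during treatment. The sample labels put the age at 8 days and the series text at 7 days, several seeds were sown together, and nothing says whether replicates came from separate plates, so p-values measure the spread between these libraries. The values are TPM, transcript levels scaled for length and library that can be compared between genes within a library. Comparisons used limma on log2(TPM + 1) over the 19528 genes that averaged 1 TPM or more, and a gene is called higher or lower where its Benjamini-Hochberg adjusted p over all genes tested is below 0.05. Fold changes below are differences of mean log2(TPM + 1) with their standard error.

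The treatment labels were checked on RAB18, an ABA-responsive dehydrin gene, which averaged 863 ± 80.1 TPM with ABA, 3512 ± 479 TPM with 3'-propyl ABA and 567 ± 12.4 TPM with 3'-butyl ABA, against 13.6 ± 0.455 TPM with DMSO (SD, n = 3 each). Pearson correlations of log2 values between replicates lay between 0.988 and 0.996, and no pair of libraries held identical values. All 5 leaf, 8 endodermis and 7 root hair markers looked up were above 0 in every library, as whole seedlings should show. Library 1 of the DMSO group stood apart in the root: its 8 endodermis markers summed to 152 TPM, against 55.2 and 54.7 TPM in the other DMSO libraries. In whole seedlings fewer cells of a type and less RNA per cell cannot be told apart.

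All 3 compounds raised HB7, HB12, HB6, HB1, HB21 and HB40, and the size of the rise differed widely among them. Mean TPM was 31.4 to 72.9 times the DMSO mean for HB7 and HB12, 2.07 to 3.05 times for HB6 and HB1, and 0.703 to 1.23 times for HB5 and HB13. With ABA, 7 members were called higher and 0 lower than with DMSO, where 22.0% of all tested genes were called higher, 24.7% lower and 46.7% in either direction. With 3'-propyl ABA, 6 were called higher and 1 lower, where 27.5% of all genes were called higher, 38.5% lower and 66.0% in either direction; with median-of-ratios scaling the calls over all genes changed from 5371 higher and 7518 lower to 6526 higher and 6372 lower. With 3'-butyl ABA, 9 were called higher and 0 lower, where 25.1% of all genes were called higher, 25.6% lower and 50.6% in either direction. The median member changed by 1.13, 1.58 and 1.30 on the log2 scale with ABA, with 3'-propyl ABA and with 3'-butyl ABA, where the median of all genes was at -0.03, -0.12 and 0.00. At an unadjusted p below 0.05, in either direction, the counts were 7, 8 and 9 with limma, beside 52.9%, 69.0% and 56.3% of all genes. HB21, HB40 and HB53 averaged under 1 TPM with DMSO and passed the 1 TPM limit through their treated libraries, so their part in these counts and medians is no support. The 3 comparisons share the DMSO libraries and are not independent of each other. Because the members were chosen with earlier results of these data known, these counts and medians are a description and not a test.

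**Figure D1:**
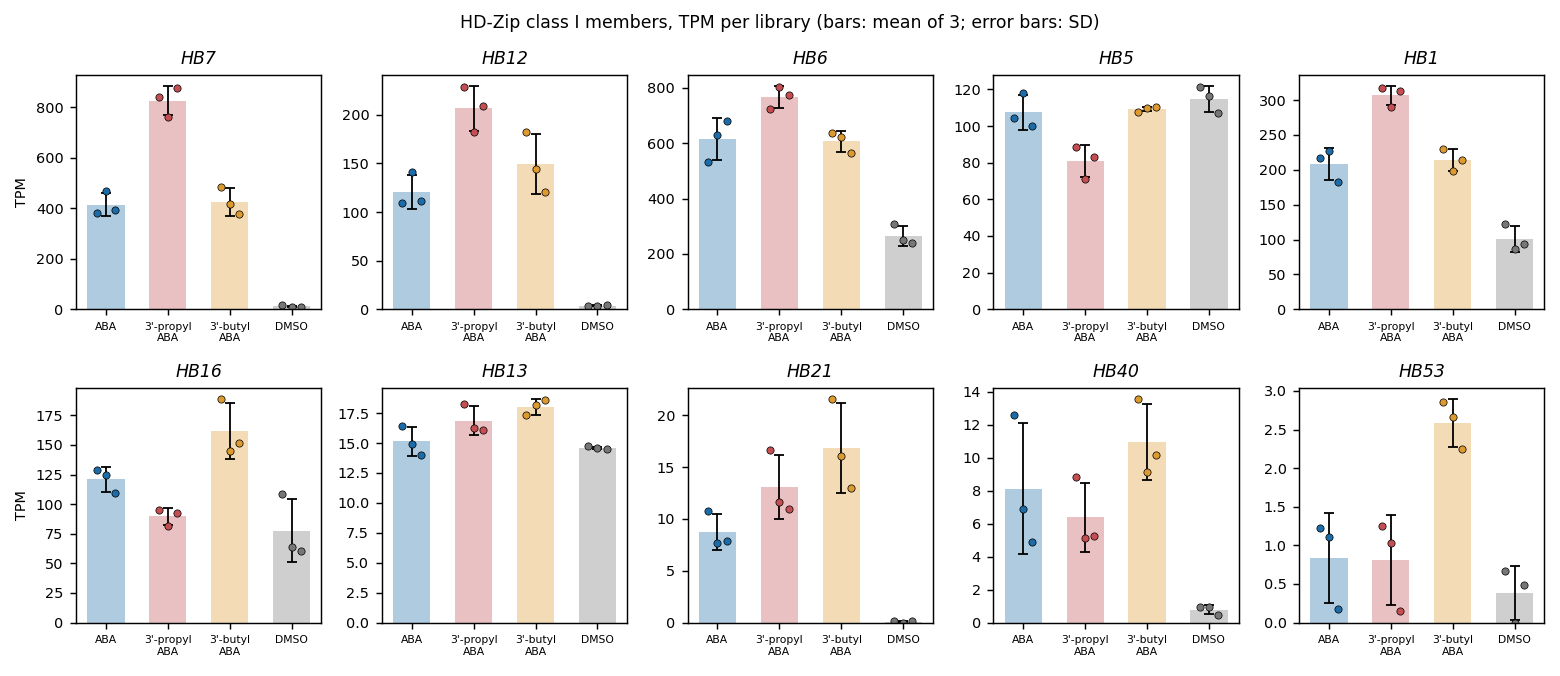
TPM of each member (y axis, own scale per panel, starting at 0) in the 12 libraries (points) with the group mean (bar) and SD (error bar) for ABA, 3'-propyl ABA, 3'-butyl ABA and DMSO. The DMSO bars of HB7, HB12 and HB21 are barely visible, and HB5 is lowest with 3'-propyl ABA.

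HB7 and HB12 are a pair of close relatives, induced by drought and ABA, which are known to act in a feedback on ABA signalling and to restrain growth. In the TAIR10.1 annotation HB7 (AT2G46680) has 2 exons on the minus strand at chr2:19165274-19166967. HB12 (AT3G61890) has 2 exons on the minus strand at chr3:22914154-22915393. Over 687 aligned coding bases the pair is 79.6% identical, the highest value of the 45 pairs of members. Counted over the longer sequence of each pair it is 70.4%, below HB6 and HB16 (72.5%) and HB21 and HB40 (71.5%).

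HB7 stood at 382, 467 and 392 TPM with ABA, at 841, 762 and 877 TPM with 3'-propyl ABA and at 485, 417 and 376 TPM with 3'-butyl ABA, against 15.1, 10.2 and 8.75 TPM with DMSO. Every treated library lay far above every DMSO library, and the 3'-propyl ABA libraries lay above all others. The changes against DMSO were 5.10 ± 0.16 with ABA (adjusted p = 1.9e-09), 6.10 ± 0.16 with 3'-propyl ABA (adjusted p = 1.4e-10) and 5.14 ± 0.16 with 3'-butyl ABA (adjusted p = 2e-09).

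HB12 showed the same order at a lower level, with 109, 141 and 111 TPM with ABA, 229, 182 and 209 TPM with 3'-propyl ABA and 183, 144 and 121 TPM with 3'-butyl ABA, against 3.72, 3.34 and 4.46 TPM with DMSO. The treated and DMSO libraries were again far apart, while the highest 3'-butyl ABA library, at 183 TPM, passed the lowest 3'-propyl ABA library, at 182 TPM. The changes were 4.65 ± 0.15 (adjusted p = 1.5e-09), 5.42 ± 0.15 (adjusted p = 1.4e-10) and 4.94 ± 0.15 (adjusted p = 1e-09) with ABA, with 3'-propyl ABA and with 3'-butyl ABA. The DMSO level rests on an estimated 83 reads over 3 libraries, read from the steps of the TPM values.

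The ratio of HB7 to HB12 averaged 3.44 ± 0.114 with ABA, 4.02 ± 0.299 with 3'-propyl ABA and 2.89 ± 0.226 with 3'-butyl ABA, against 3.02 ± 1.05 with DMSO (SD, n = 3 each). Between each pair of compounds the libraries did not overlap, which gives a two-sided exact permutation p of 0.1, the smallest that 3 against 3 libraries allow. Each compound overlapped with DMSO, whose ratios ran from 1.96 to 4.06 (exact permutation p of 0.7 for ABA, 0.2 for 3'-propyl ABA and 1 for 3'-butyl ABA).

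A stretch from the 300 bases upstream of each annotated start of this pair is shown because these windows share the longest run of any pair of members. The stretch was picked out after the windows had been read. Both lines are written 5′ to 3′ on the minus strand of TAIR10.1 (RefSeq genome), from chr2:19167084-19167145 and chr3:22915563-22915624, with the shared run in capitals.
HB7: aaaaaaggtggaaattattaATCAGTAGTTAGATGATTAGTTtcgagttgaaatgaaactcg
HB12: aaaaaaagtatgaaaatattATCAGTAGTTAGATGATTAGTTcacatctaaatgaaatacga
The run is 22 bases long and ends 137 bases before the HB7 start and 190 bases before the HB12 start. Among 27443 protein-coding promoter windows of 300 bases, searched on both strands, 2 held it, those of HB7 and HB12. The longest run shared by any of the other 44 pairs of members was 7 to 11 bases long. The series holds no measurement of factor binding, and the run is a description of the sequence.

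The ABA-responsive element (ABRE) is bound by ABF transcription factors, and its core ACGTG was searched on both strands. It occurred in 25.6% of all 300-base windows and in 54.4% of all 1000-base windows, with 27.8% of the longer ones holding 2 or more matches. A CACGTG counts as 2 matches, in these shares and in the counts of the members. HB7 had 0 matches in 300 bases and 1 in 1000 bases. HB12 had 1 in 300 and 4 in 1000 bases. The core at the center of each stretch is shown in capitals, with 12 bases on each side, for HB7 at chr2:19167820-19167848 and for HB12 at chr3:22916183-22916211 (upstream), chr3:22916049-22916077 (middle) and chr3:22915675-22915703 (proximal), all on the minus strand. The fourth HB12 core, CACGT, lies inside the upstream stretch and is left there in lower case.
HB7: cacggaagttttACGTGtggtgaaggtaa
HB12 upstream: agtctcgttaaaACGTGtttcacgtaacc
HB12 middle: cctgatatgtgaACGTGgaatctcgttac
HB12 proximal: tgattgtcaaccCACGTtatcattcactt
The drought-responsive core CCGAC, found in 37.4% of 1000-base windows, occurred 1 time upstream of HB12 and 0 times upstream of HB7. The sequence CAATNATTG, to which class I proteins bind in vitro, occurred in 3.44% of 1000-base windows and in 0 of the 10 members' windows.

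HB6, HB5, HB1 and HB16 were the members with most transcript in DMSO seedlings, and they split 3 ways: HB6 and HB1 were higher with every compound, HB16 with ABA and 3'-butyl ABA, and HB5 with none. HB6 (AT2G22430, 3 exons, minus strand, chr2:9525988-9527845) encodes a factor that binds the phosphatase ABI1 and is known as a brake on ABA responses. Its level was 532, 631 and 681 TPM with ABA, 724, 805 and 773 TPM with 3'-propyl ABA and 636, 622 and 563 TPM with 3'-butyl ABA, against 308, 249 and 238 TPM with DMSO. No treated library came down to the DMSO range. The changes were 1.21 ± 0.11 with ABA (adjusted p = 2.3e-06), 1.54 ± 0.11 with 3'-propyl ABA (adjusted p = 8.2e-08) and 1.20 ± 0.11 with 3'-butyl ABA (adjusted p = 2.3e-06).

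HB1 (AT3G01470, 4 exons, minus strand, chr3:182396-184403) is known to promote hypocotyl elongation downstream of the light-signalling factor PIF1. It had 217, 226 and 183 TPM with ABA, 317, 291 and 312 TPM with 3'-propyl ABA and 229.8, 198 and 214 TPM with 3'-butyl ABA, against 122, 86.3 and 93.8 TPM with DMSO. The 4 groups fell into 3 bands, with 3'-propyl ABA on top, ABA and 3'-butyl ABA together below it, and DMSO at the bottom. The changes were 1.06 ± 0.12 with ABA (adjusted p = 1.5e-05), 1.61 ± 0.12 with 3'-propyl ABA (adjusted p = 1.3e-07) and 1.10 ± 0.12 with 3'-butyl ABA (adjusted p = 1e-05). The HB1 gene body overlaps 3 annotated genes on the opposite strand, and whether strand was used in counting is not given in the sources used here; 0 genes overlap any of the other 9 members.

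HB5 (AT5G65310, 3 exons, minus strand, chr5:26101818-26104614) is a relative of HB6, known for its part in the ABA response of germinating seeds. It had 104, 118 and 99.9 TPM with ABA, 88.3, 71.2 and 82.9 TPM with 3'-propyl ABA and 108, 109.8 and 110.2 TPM with 3'-butyl ABA, against 121, 116 and 107 TPM with DMSO. Every 3'-propyl ABA library lay below every other library, and the other 3 groups overlapped with each other. It fell with 3'-propyl ABA (-0.51 ± 0.09, adjusted p = 0.00023), the only call among the members below DMSO. It was not called with ABA (-0.10, 95% interval -0.29 to 0.09, adjusted p = 0.39) or with 3'-butyl ABA (-0.07, 95% interval -0.26 to 0.12, adjusted p = 0.53).

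HB16 (AT4G40060, 3 exons, minus strand, chr4:18571239-18573084) is the nearest relative of HB6 among the members by coding sequence, with 78.0% identity over aligned bases, and is known as a regulator of leaf growth and flowering time. It had 129, 125 and 109 TPM with ABA, 94.7, 81.3 and 92.7 TPM with 3'-propyl ABA and 189, 145 and 151 TPM with 3'-butyl ABA, against 109, 64.0 and 60.5 TPM with DMSO. The 3'-butyl ABA libraries were highest, and DMSO library 1, which also had the most endodermis marker transcript in its group, was well above the other DMSO libraries. HB16 rose with ABA (0.68 ± 0.19, adjusted p = 0.012) and with 3'-butyl ABA (1.09 ± 0.19, adjusted p = 0.00061), and was not called with 3'-propyl ABA (0.25 ± 0.19, adjusted p = 0.26). Without DMSO library 1 the values were 0.95 with ABA (adjusted p = 4.4e-05), 0.52 with 3'-propyl ABA (adjusted p = 0.002) and 1.35 with 3'-butyl ABA (adjusted p = 2.4e-06), so that HB16 was then called higher with all 3. The ABA call was lost without DMSO library 2 or without DMSO library 3 (adjusted p = 0.051 for each).

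HB13 (AT1G69780, 3 exons, plus strand, chr1:26258788-26260781) is known to affect cotyledon and leaf shape. It had 16.5, 14.9 and 14.0 TPM with ABA, 18.3, 16.3 and 16.1 TPM with 3'-propyl ABA and 17.3, 18.1 and 18.6 TPM with 3'-butyl ABA, against 14.7, 14.6 and 14.5 TPM with DMSO. The ABA libraries spanned the DMSO range, and every library of the derivatives lay above it. HB13 was called higher with 3'-butyl ABA (0.28 ± 0.08, adjusted p = 0.011), a mean 1.23 times that with DMSO. It missed the threshold with 3'-propyl ABA (0.19 ± 0.08, adjusted p = 0.052), where median-of-ratios scaling (0.32, adjusted p = 0.0026), quantile normalization (adjusted p = 0.043), a limit of 5 TPM (adjusted p = 0.048), eBayes without trend or robust (adjusted p = 0.046) and leaving out 3'-propyl ABA library 3 (0.23) called it, and with ABA (0.04 ± 0.08, 95% interval -0.13 to 0.22, adjusted p = 0.68).

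HB21, HB40 and HB53 form a group of related factors that the branching regulator BRC1 is known to switch on in dormant axillary buds, where they raise the ABA synthesis gene NCED3. All 3 were near the limit of detection with DMSO. HB21 (AT2G18550, 3 exons, minus strand, chr2:8049371-8051316) had 10.8, 7.65 and 7.83 TPM with ABA, 16.6, 11.6 and 11.0 TPM with 3'-propyl ABA and 21.6, 16.0 and 13.0 TPM with 3'-butyl ABA, against 0.148, 0 and 0.143 TPM with DMSO. Its mean was the lowest of the 10 members with DMSO, and with the derivatives its libraries overlapped those of HB13.

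The HB21 values stand for an estimated 185, 259 and 349 reads summed over the 3 libraries each with ABA, with 3'-propyl ABA and with 3'-butyl ABA, against 2 reads over the DMSO libraries. Scaled to TPM, the read ratio to DMSO was 96.1 (95% exact counting interval 26.2 to 799) with ABA, 141 (38.7 to 1172) with 3'-propyl ABA and 182 (50.0 to 1509) with 3'-butyl ABA; these intervals cover counting error only. On the log2(TPM + 1) scale, which understates folds near 0, HB21 rose by 3.14 ± 0.20 with ABA (adjusted p = 1.9e-07), 3.66 ± 0.20 with 3'-propyl ABA (adjusted p = 1.1e-08) and 4.00 ± 0.20 with 3'-butyl ABA (adjusted p = 3e-08).

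HB40 (AT4G36740, 3 exons, minus strand, chr4:17314453-17316441) had 12.6, 6.90 and 4.89 TPM with ABA, 8.82, 5.12 and 5.26 TPM with 3'-propyl ABA and 13.6, 9.11 and 10.2 TPM with 3'-butyl ABA, against 0.964, 0.934 and 0.466 TPM with DMSO. In each group library 1 was the highest, and every treated library stood well above every DMSO library. HB40 rose by 2.28 ± 0.29 with ABA (adjusted p = 4.8e-05), 2.03 ± 0.29 with 3'-propyl ABA (adjusted p = 5.5e-05) and 2.74 ± 0.29 with 3'-butyl ABA (adjusted p = 1e-05). Its DMSO level rests on an estimated 16 reads. The read ratio to DMSO was 10.4 (95% exact counting interval 6.20 to 18.6) with ABA, 7.97 (4.71 to 14.4) with 3'-propyl ABA and 13.6 (8.19 to 24.3) with 3'-butyl ABA. These intervals cover counting error only and leave out the spread between libraries.

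HB40 had the most ABRE cores of the 10 members, 4 in 300 bases, which is why its window is shown, where 9.94% of all promoters held 2 or more. The 300 bases at chr4:17316442-17316741 on the minus strand follow, with the cores in capitals; the first stretch, CACGTG, holds a core on each strand and is found in 7.09% of all 300-base windows.
HB40: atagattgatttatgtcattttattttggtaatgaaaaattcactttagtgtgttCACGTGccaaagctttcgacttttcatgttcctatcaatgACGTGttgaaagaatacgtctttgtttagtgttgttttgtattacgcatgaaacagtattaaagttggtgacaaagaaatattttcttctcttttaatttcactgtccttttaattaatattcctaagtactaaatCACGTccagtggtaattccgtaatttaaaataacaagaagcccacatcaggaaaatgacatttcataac
In 1000 bases HB40 had 5 cores, of which CACGTG counted as 2, and HB12 had 4 without a CACGTG. HB21 and HB1 had 2 each, HB6, HB5 and HB53 had 1 each, and HB16 and HB13 had 0. HB5 had 1 core in 300 bases and HB7 had 0, and each had 1 in 1000 bases. HB5 was not higher with any compound, and HB7 rose by more than 5 log2 units with each. Whether the cores bear on these changes was not tested.

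HB53 (AT5G66700, 2 exons, plus strand, chr5:26634275-26635885), also known as an auxin-responsive gene of roots, had 1.23, 1.11 and 0.169 TPM with ABA, 1.26, 1.03 and 0.156 TPM with 3'-propyl ABA and 2.85, 2.66 and 2.24 TPM with 3'-butyl ABA, against 0.667, 0 and 0.484 TPM with DMSO. Every 3'-butyl ABA library lay above all other libraries, which overlapped with each other. HB53 rose with 3'-butyl ABA (1.40 ± 0.31, adjusted p = 0.0025) and was not called with ABA (0.39, 95% interval -0.29 to 1.06, adjusted p = 0.34) or with 3'-propyl ABA (0.37, 95% interval -0.31 to 1.04, adjusted p = 0.32). The values stand for an estimated 48 reads over the 3'-butyl ABA libraries, 16 over ABA, 14 over 3'-propyl ABA and 7 over DMSO.

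**Figure D2:**
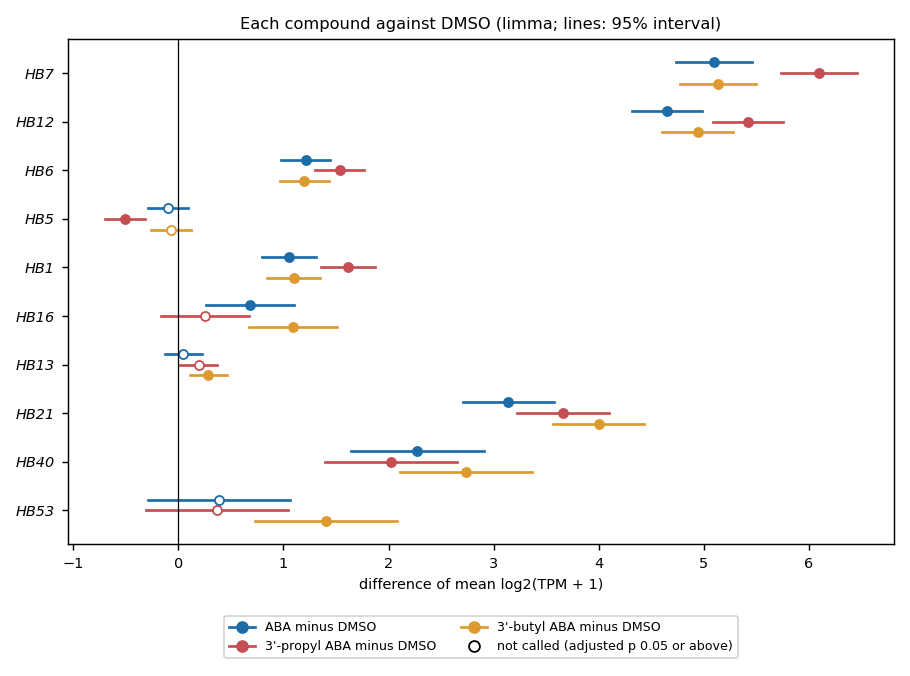
Difference of mean log2(TPM + 1) of each compound minus DMSO (x axis) for each member (rows), with 95% intervals from limma; open points were not called. HB7 and HB12 lie furthest to the right, between 4.65 and 6.10, and HB5 with 3'-propyl ABA is the only filled point left of 0.

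The order of the members by level changed with treatment. With ABA HB6 (615 ± 76.2 TPM) led HB7 (414 ± 46.3 TPM) and HB1 (209 ± 22.8 TPM), and HB16, HB12 and HB5 followed with overlapping libraries. With 3'-propyl ABA HB7 averaged 827 ± 58.7 TPM and HB6 767 ± 40.9 TPM, with overlapping libraries, ahead of HB1 and HB12. With 3'-butyl ABA the order was that of ABA, with HB6 at 607 ± 38.8 TPM and HB7 at 426 ± 54.9 TPM. With DMSO HB6 averaged 265 ± 37.3 TPM, above HB5, HB1 and HB16, where neighbours overlapped, and HB7 was sixth with 11.3 ± 3.35 TPM, in the range of HB13 (SD, n = 3 each).

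The 10 members together made up 1619 ± 113 TPM with ABA, 2314 ± 79.2 TPM with 3'-propyl ABA and 1716 ± 156 TPM with 3'-butyl ABA, against 589 ± 91.5 TPM with DMSO (SD, n = 3 each). HB7 and HB12 supplied 32.9 ± 1.84%, 44.6 ± 1.89% and 33.4 ± 1.97% of that sum with ABA, with 3'-propyl ABA and with 3'-butyl ABA, against 2.56 ± 0.130% with DMSO. The share did not overlap between groups, with an exact permutation p of 0.1, the smallest possible, except between 3'-butyl ABA and ABA (p = 0.7, exact permutation test). HB6 supplied 38.0 ± 3.97%, 33.2 ± 2.67% and 35.5 ± 1.62% with the compounds, against 45.0 ± 0.727% with DMSO.

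**Figure D3:**
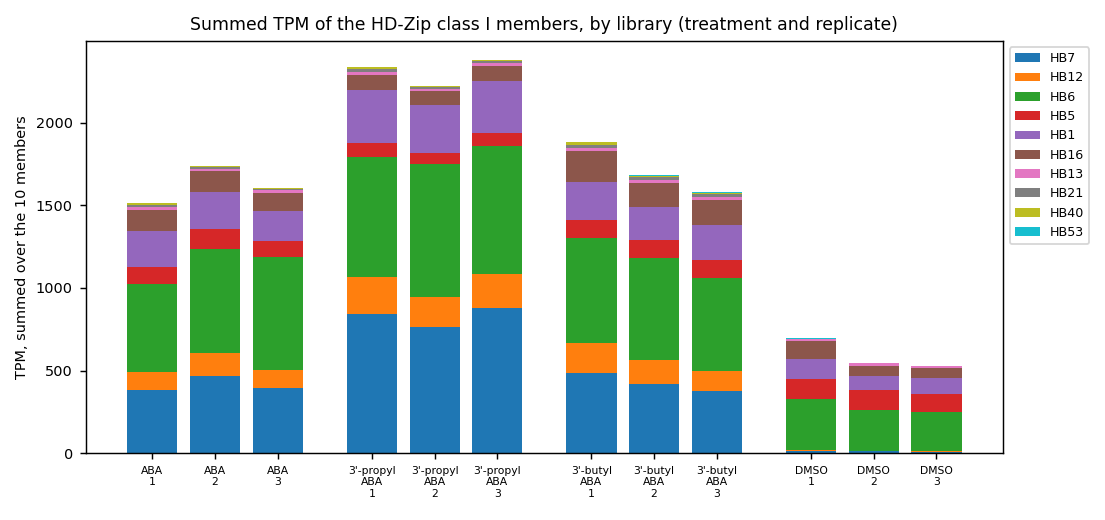
Summed TPM of the 10 members (y axis) in each library (x axis, by treatment and replicate), stacked by gene. Sums run from 1515 to 1738 with ABA, 2226 to 2379 with 3'-propyl ABA, 1580 to 1885 with 3'-butyl ABA and 528 to 695 with DMSO, and the HB7 block at the base is nearly absent with DMSO.

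The propyl derivative and ABA were compared at the same dose and time. HB7, HB12, HB1 and HB6 were higher with 3'-propyl ABA than with ABA, HB5 was lower, and 5 members were not called. For the background, 15.5% of all genes were called higher, 26.4% lower and 41.8% in either direction, and with median-of-ratios scaling the calls over all genes changed from 3021 higher and 5148 lower to 4138 higher and 3534 lower. HB7 was higher by 1.00 ± 0.16 (adjusted p = 0.00057), a mean TPM 2.00 times as high. HB12 followed with 0.77 ± 0.15 (adjusted p = 0.0018), HB1 with 0.56 ± 0.12 (adjusted p = 0.0025) and HB6 with 0.33 ± 0.11 (adjusted p = 0.028), and HB5 was lower by -0.41 ± 0.09 (adjusted p = 0.0027). The libraries of 3'-propyl ABA and ABA did not overlap for any of these 5, and for 7 of the 10 members in all, where 51.4% of all genes did not overlap. The HB6 call was lost without ABA library 1 (0.23, adjusted p = 0.12), 3'-propyl ABA library 2 (adjusted p = 0.09) or 3'-propyl ABA library 3 (adjusted p = 0.073).

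Of the 5 others, HB21 (0.52, 95% interval 0.09 to 0.95, adjusted p = 0.054) and HB16 (-0.43, 95% interval -0.85 to -0.01, adjusted p = 0.093) came closest to the threshold; at an unadjusted p below 0.05 there were 7 of the 10 members, beside 49.6% of all genes. HB13 differed by 0.15 (95% interval -0.03 to 0.33), HB40 by -0.25 (-0.88 to 0.38) and HB53 by -0.02 (-0.70 to 0.66). HB21 was called with median-of-ratios scaling (0.62, adjusted p = 0.021) and with quantile normalization (0.61, adjusted p = 0.022), and HB13 with median-of-ratios scaling (0.25, adjusted p = 0.02). HB21 was also called without ABA library 1 (0.66, adjusted p = 0.03).

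Between the butyl derivative and ABA, limma called 0 of the 10 members, where 0.819% of all genes were called higher, 0.783% lower and 1.60% in either direction. At an unadjusted p below 0.05, which 17.3% of all genes reached, there were 3: HB21 (0.86 ± 0.20, adjusted p = 0.054), HB53 (1.02 ± 0.31, adjusted p = 0.12) and HB13 (0.24 ± 0.08, adjusted p = 0.16). For each of these 3, every 3'-butyl ABA library lay above every ABA library. In all, the libraries of 4 members did not overlap, where 25.8% of all genes did not. HB53 passed the 1 TPM limit through its 3'-butyl ABA libraries, so its part in both of these counts is no support. For HB7 the difference was 0.04 (95% interval -0.32 to 0.40), for HB6 -0.01 (-0.25 to 0.22), for HB1 0.04 (-0.22 to 0.30) and for HB5 0.03 (-0.16 to 0.22). The intervals were wider for HB12 (0.29, -0.04 to 0.63), HB16 (0.41, -0.01 to 0.83) and HB40 (0.46, -0.17 to 1.09). HB21 was called without ABA library 1 (1.00, adjusted p = 0.037).

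The derivatives differ from each other by 1 carbon in the alkyl chain. In all, 7 of the 10 members were called between them, and 8 reached an unadjusted p below 0.05, as did 55.6% of all genes. HB7, HB1, HB12 and HB6 were lower with 3'-butyl ABA than with 3'-propyl ABA, and HB16, HB5 and HB53 were higher. HB53 passed the 1 TPM limit through its 3'-butyl ABA libraries, so its part in this count is no support. Over all genes 31.2% were called higher, 17.6% lower and 48.8% in either direction, and median-of-ratios scaling changed the calls from 6100 higher and 3431 lower to 4265 higher and 4759 lower. The decreases were -0.96 ± 0.16 for HB7 (adjusted p = 0.00059), -0.52 ± 0.12 for HB1 (adjusted p = 0.0034), -0.48 ± 0.15 for HB12 (adjusted p = 0.022) and -0.34 ± 0.11 for HB6 (adjusted p = 0.021). The increases were 0.84 ± 0.19 for HB16 (adjusted p = 0.0039), 0.44 ± 0.09 for HB5 (adjusted p = 0.0015) and 1.04 ± 0.31 for HB53 (adjusted p = 0.016). The libraries of these 7 did not overlap between the derivatives, except those of HB12, where 61.9% of all genes did not overlap.

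Leaving out 3'-propyl ABA library 3 reduced the 7 calls to 4, with the loss of HB12 (-0.47, adjusted p = 0.061), HB6 (-0.33, adjusted p = 0.056) and HB53 (0.74, adjusted p = 0.074). That library holds an estimated 1 read of HB53. HB12 was also lost without 3'-propyl ABA library 1 (adjusted p = 0.077), 3'-butyl ABA library 2 (adjusted p = 0.06) or 3'-butyl ABA library 3 (adjusted p = 0.092), and HB6 without 3'-propyl ABA library 2 (adjusted p = 0.071) or 3'-butyl ABA library 3 (adjusted p = 0.084). HB40 (0.71 ± 0.29, adjusted p = 0.06), HB21 (0.34 ± 0.20, adjusted p = 0.18) and HB13 (0.09 ± 0.08, adjusted p = 0.37) were not called, with 95% intervals of 0.08 to 1.34, -0.10 to 0.77 and -0.09 to 0.27. HB40 was called without 3'-propyl ABA library 1 (0.93, adjusted p = 0.026) and in a fit of the 6 libraries compared alone (adjusted p = 0.019).

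**Figure D4:**
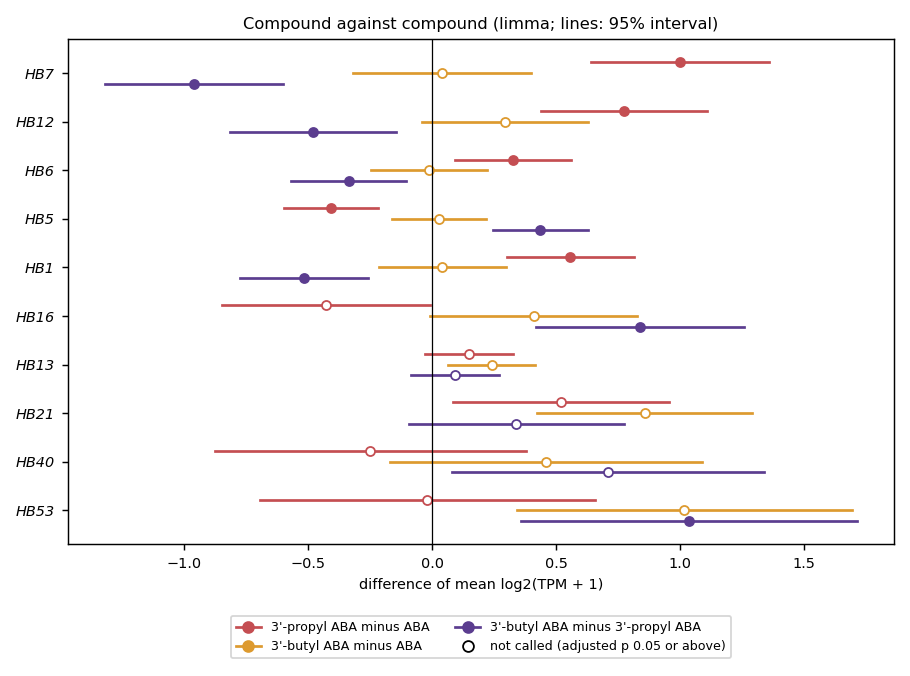
Difference of mean log2(TPM + 1) of 3'-propyl ABA minus ABA, 3'-butyl ABA minus ABA and 3'-butyl ABA minus 3'-propyl ABA (x axis) for each member (rows), with 95% intervals from limma; open points were not called. The points of 3'-butyl ABA minus ABA are all open, while HB7 is at 1.00 for 3'-propyl ABA minus ABA and at -0.96 for 3'-butyl ABA minus 3'-propyl ABA.

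Endodermis and leaf marker sums were highest with 3'-butyl ABA among the compounds, as were the mean TPM of HB16, HB13, HB21, HB40 and HB53. The 8 endodermis markers summed to 44.4 to 113 TPM with ABA, 37.8 to 66.1 TPM with 3'-propyl ABA and 123 to 163 TPM with 3'-butyl ABA, against 54.7 to 152 TPM with DMSO. The 7 root hair markers summed to 36.2 to 121, 57.3 to 105 and 82.8 to 183 TPM with ABA, with 3'-propyl ABA and with 3'-butyl ABA, against 68.6 to 200.0 TPM with DMSO. The 5 leaf markers summed to 12573 to 14408, 6630 to 9459 and 15466 to 16175 TPM with the compounds in the same order, against 10329 to 11595 TPM with DMSO. In each of the 4 groups library 1 had the highest endodermis sum, and 4 of the 10 members, HB16, HB21, HB40 and HB53, were highest in that library in every group. The share of all genes with this pattern was not counted, so the number of members with it is not a result about them. Over all genes, deviations from the group mean correlated at 0.115 to 0.329 in the 6 pairs of libraries numbered 1. These 4 members were higher, within ABA, in the library with the highest endodermis sum (113 TPM) than in the one with the lowest (44.4 TPM), with 129 and 109 TPM for HB16, 10.8 and 7.83 TPM for HB21, 12.6 and 4.89 TPM for HB40 and 1.23 and 0.169 TPM for HB53. With 3'-butyl ABA library 2 had a lower endodermis sum (123 TPM) than library 3 (143 TPM). There HB21 (16.0 and 13.0 TPM) and HB53 (2.66 and 2.24 TPM) were higher in library 2 than in library 3, while HB16 and HB40 were lower. The same held for libraries 2 and 3 with 3'-propyl ABA. In the DMSO group library 1, at 152 TPM of endodermis markers, had 0.148 TPM of HB21, against 0 and 0.143 TPM in the other DMSO libraries. The values of 0.148 and 0.143 TPM each stand for an estimated 1 read. In DMSO libraries 1, 2 and 3, HB40 had an estimated 6, 7 and 3 reads and HB53 had 4, 0 and 3. Their order within the DMSO group thus rests on few reads. The part of these markers in the differences of HB16, HB21, HB40 and HB53 was not tested.

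**Figure D5:**
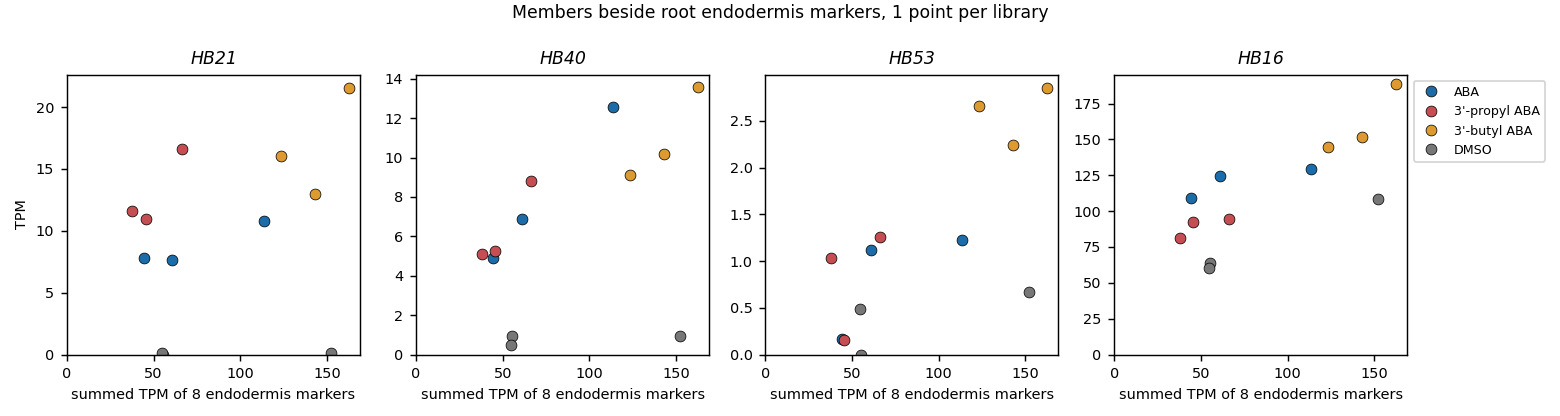
TPM of HB21, HB40, HB53 and HB16 (y axes) against the summed TPM of 8 endodermis markers (x axis) in the 12 libraries, colored by treatment. The 3'-butyl ABA libraries have sums of 123 to 163 TPM, and DMSO library 1, at 152 TPM, lies among them on the x axis. In each group the library furthest to the right is the highest for all 4 genes.

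Of the 7 other class I genes, HB22, HB51 and HB54 were below 1 TPM on average and were not tested. Of the 4 tested, 0 were higher with any compound than with DMSO, and 2, 3 and 0 were lower with ABA, with 3'-propyl ABA and with 3'-butyl ABA (limma; 2, 3 and 0 in either direction at an unadjusted p below 0.05), where 24.7%, 38.5% and 25.6% of all genes were lower. HB3 averaged 5.40 ± 1.12 TPM with ABA, 3.73 ± 0.342 TPM with 3'-propyl ABA and 8.97 ± 1.52 TPM with 3'-butyl ABA, against 8.80 ± 0.816 TPM with DMSO (SD, n = 3 each), and fell by 0.63 with ABA (adjusted p = 0.0047) and 1.05 with 3'-propyl ABA (adjusted p = 5.5e-05). HB23, a close homologue of HB13, fell by 0.47 with ABA (adjusted p = 0.049) and 0.78 with 3'-propyl ABA (adjusted p = 0.0021). HB52 fell by 1.42 with 3'-propyl ABA (adjusted p = 0.00042), and HB20 was not called with any compound. All 4 were called higher with 3'-butyl ABA than with 3'-propyl ABA, as were 31.2% of all genes, from 0.69 ± 0.18 for HB23 to 1.47 ± 0.26 for HB52.

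The related HD-Zip classes, which act in shade responses, organ polarity and the epidermis, were counted in the same way, beside 22.0%, 27.5% and 25.1% of all genes called higher and 24.7%, 38.5% and 25.6% called lower with ABA, with 3'-propyl ABA and with 3'-butyl ABA. Of 10 class II genes, 1 was higher and 3 lower with ABA, 4 and 6 with 3'-propyl ABA, and 4 and 3 with 3'-butyl ABA. The shade response gene HB2 rose by 1.01, 0.42 and 0.90 (adjusted p = 3.9e-05, 0.011 and 9.3e-05) and HAT1 fell by 1.07, 0.93 and 1.15 (adjusted p = 4.7e-05, 6.8e-05 and 2.4e-05). The largest changes in class II with 3'-propyl ABA were those of HAT3 and HB4. HAT3 changed by -0.51, -1.81 and -0.34, all called. HB4 changed by 0.30, -1.19 and 0.36, with only the second called. Of 5 class III genes, 0 were higher with any compound and 1, 4 and 2 were lower (1, 4 and 2 in either direction at an unadjusted p below 0.05 with limma), with REV, a gene of organ polarity, down with all 3. Of 9 class IV genes tested out of 16, 0 were higher and 2, 7 and 4 were lower (3, 7 and 5 at an unadjusted p below 0.05), among them PDF2, an epidermis gene, with -0.38, -1.15 and -0.44 (adjusted p = 0.0078, 5.9e-07 and 0.0029). HDG1, also of class IV, changed by -0.29, -1.24 and -0.63 (limma, adjusted p = 0.06, 1.1e-06 and 0.00067).

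Of 10 partners and reported targets of the members, 9 were tested, BRC1 being below the 1 TPM limit. With ABA 4 were higher and 3 lower, with 3'-propyl ABA 3 and 5, and with 3'-butyl ABA 5 and 3, where 46.7%, 66.0% and 50.6% of all genes were called in either direction. ABI2 and ABI1, of the PP2C phosphatase genes that HB7 and HB12 are known to activate as a group, rose by 3.49 and 2.36 with ABA, 4.94 and 3.36 with 3'-propyl ABA and 3.52 and 2.65 with 3'-butyl ABA, beside HB7 changes of 5.10, 6.10 and 5.14 and HB12 changes of 4.65, 5.42 and 4.94. The receptor genes PYL5 and PYL8, which they are known to repress, changed by -2.71 and -1.08, by -3.49 and -1.92, and by -2.02 and -0.98 in the same order. NCED3, which HB21, HB40 and HB53 are known to raise in buds, rose by 2.62 with ABA, 2.16 with 3'-propyl ABA and 3.63 with 3'-butyl ABA, beside changes of 3.14, 3.66 and 4.00 for HB21 and 2.28, 2.03 and 2.74 for HB40. HB53 was at 0.39, 0.37 and 1.40, with the last called. IAA12, an auxin signalling gene that HB5 is reported to control, fell by 0.40, 0.83 and 0.39, beside HB5 values of -0.10, -0.51 and -0.07, of which the second was called. The direction of that control is not given here, so falls in both genes are not to be read as agreement with it. PYL8 and IAA12 were named after their values were seen. The other tested genes of the list follow in the same order. GA20OX1 changed by -0.25, -1.32 and -0.10 (adjusted p = 0.27, 2.6e-05 and 0.68 with limma), so it was called with 3'-propyl ABA only. ABI3 changed by 0.68, 0.43 and 0.54, called with ABA and 3'-butyl ABA. PIF1 changed by -0.10, -0.98 and 0.23, called with the 2 derivatives. These values show what moved in the same libraries and not which gene acts on which.

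For each member, the genes nearest to it were those with the smallest root mean square difference of log2(TPM + 1), each gene taken relative to its own DMSO mean, over the 12 libraries. Nearest to HB7 were AT4G33467 (0.24), the half-size transporter gene ABCG6 (0.30) and the phosphatase gene HAI3 (0.30). HB12 was nearest to AFP1 (0.27), which encodes a binding protein of the ABA factor ABI5, and to the heat stress factor gene HSFA6B (0.35). Beside HB6 were AT5G66650 (0.12), MHX (0.13) and SFR2 (0.13), and beside HB5 was ORG4 (0.06). WEB1 (0.08) was nearest to HB1, AT3G15300 (0.11) to HB16 and ERCC1 (0.07) to HB13. HB21 was nearest to OZF1 (0.26), HB40 to NAC060 (0.27) and HB53 to RHD6, a root hair regulator (0.28). Smaller values are found around genes that change little, so the distances do not rank the members.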

How the data were processed

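The 12 libraries were poly(A)-selected and strand-specific, sequenced on an Illumina HiSeq, per the labels' protocols. The deposited values are TPM made by the authors, with 1 column per library, and each library sums to 1000000. The genome TAIR10 and bcl2fastq are named in the submitters' processing notes, and an aligner, a counting tool and an annotation release were not given in the sources used here. Samples were grouped by the treatment label. Members, lists and the rule for named genes were chosen with earlier results of these data known: all members, the other class I genes, and up to 4 called genes per list with the largest change. From the related HD-Zip classes only some of the genes under this rule are named, and of the partners and reported targets all tested genes are.

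Values were taken as log2(TPM + 1), genes averaging 1 TPM or more across all libraries were retained (19528 of 27655), and 1 mean per treatment was fitted with limma 3.58.1 in R 4.3.3 (eBayes with trend and robust). Each of the 6 contrasts had two-sided p-values, adjusted by Benjamini-Hochberg within the contrast across every gene in the fit, and calls were made below 0.05. All 10 members passed, so the permutation test planned for members below the limit was not needed. For sums and ratios, exact permutation tests (two-sided) were used. Reads were estimated from the steps of low TPM values: in 1367 low genes, 100.0% of genes gave whole multiples of a step within 0.02. Intervals of read ratios pool the reads of each group, so they cover counting error only and leave out the spread between libraries. Coordinates, promoters (300 or 1000 bases before the annotated start) and coding identity are from the RefSeq TAIR10.1 genome and annotation; no coordinate was converted. The method was tested on simulated data. Alternatives were other scalings, pseudocounts and limits on low values, fewer libraries, a replicate block, another adjustment, plain eBayes and leaving out each library.

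Replicate numbers were not taken as pairs in the main fit. Of 18 same-numbered pairs of libraries in different groups, 9 had deviations from the group mean that correlated above 0.1 (range -0.168 to 0.329). All 6 pairs numbered 1 were among these 9. The 36 differently numbered pairs ranged from -0.35 to 0.392. These values do not settle whether same-numbered libraries belong together, and calls with a replicate block are given below.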

Additional observations from a re-analysis of the deposited data

Results flagged for a closer look

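PIF1, the light-signalling factor gene upstream of HB1, differed between the derivatives in direction: it was called lower with 3'-propyl ABA (-0.98 ± 0.09, adjusted p = 8.9e-07) and higher with 3'-butyl ABA (0.23 ± 0.09, adjusted p = 0.049) than with DMSO. The difference between 3'-butyl ABA and 3'-propyl ABA was 1.21 ± 0.09 (limma, adjusted p = 1e-06). PIF1 had 10.5, 9.30 and 8.77 TPM with 3'-propyl ABA and 22.8, 22.0 and 25.5 TPM with 3'-butyl ABA, against 19.7, 21.5 and 18.3 TPM with DMSO. HB1 was higher than with DMSO with both derivatives. Groups of 3 libraries were not searched for single outlying libraries.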

How the results depend on the processing

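The counts of members called against DMSO stayed at 6 to 7 of 10 with ABA, 7 to 8 with 3'-propyl ABA and 9 with 3'-butyl ABA when each library was left out, and at 7, 7 to 8 and 8 to 9 under the other alternatives. Between 3'-propyl ABA and ABA they ran from 4 to 5 and between 3'-butyl ABA and 3'-propyl ABA from 4 to 7 when libraries were left out. Between 3'-butyl ABA and ABA, 1 member, HB21, was called with quantile normalization, with a pseudocount of 5 and with the replicate block, 3 (HB13, HB21 and HB53) with adjustment over all 6 comparisons together, and 0 to 1 with libraries left out. The replicate block gave 7, 7 and 9 calls against DMSO, 7 between 3'-propyl ABA and ABA, 8 between the derivatives; 6 of 12 libraries correlated best with their own number, and the 6 pairs of libraries numbered 1 correlated at 0.115 to 0.329, those numbered 3 at -0.097 to 0.062. With the block HB40 was called between the derivatives (adjusted p = 0.0079) and HB21 between 3'-propyl ABA and ABA (adjusted p = 0.011). Differences near 0, called nowhere, changed sign: HB6 for 3'-butyl ABA against ABA (0.0159, quantile), HB13 for ABA against DMSO (-0.0151, quantile) and for 3'-butyl ABA against 3'-propyl ABA (-0.0317, median-of-ratios), and HB53 for 3'-propyl ABA against ABA (0.0243, median-of-ratios; 0.11, quantile). With libraries left out, 3'-butyl ABA against ABA ran from -0.0581 to 0.13 for HB7, -0.11 to 0.0665 for HB6, -0.0222 to 0.0979 for HB5 and -0.0514 to 0.10 for HB1; HB13 for ABA against DMSO ran from -0.0141 to 0.0943, and 3'-propyl ABA against ABA from -0.52 to 0.0813 for HB40 and -0.32 to 0.28 for HB53. The HB53 call between the derivatives was lost with quantile normalization (0.78, adjusted p = 0.052) and a pseudocount of 0.1 (1.87, adjusted p = 0.098). The HB16 difference between 3'-propyl ABA and ABA (-0.43) was called with the replicate block (adjusted p = 0.027) and with the 6 libraries compared alone (adjusted p = 0.0095). The causes were not tested. Median-of-ratios scaling moved the median of all genes for 3'-propyl ABA against DMSO from -0.12 to 0.00. A limit of 5 TPM left HB53 untested. HB53 and the DMSO levels of HB21 and HB40 rest on few reads.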
